A study of Mus musculus with 4 samples.

Results

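The genes of the mitogen-activated protein (MAP) kinase cascade and the dual-specificity phosphatases were followed in immature thymocytes given dexamethasone, a synthetic glucocorticoid. The members were the probe sets whose only annotated symbol starts with Mapk, Map2k, Map3k, Map4k or Dusp followed by a digit. This rule took 57 of the 12488 probe sets on the array, which stand for 37 of 8251 genes: 44 probe sets of 28 kinase or scaffold genes, and 13 probe sets of 9 phosphatase genes. It used no measured value. The rule also took Mapk8ip1 and Mapk8ip3, which encode scaffold proteins of the JNK pathway and no kinase. They are described apart, but counts over kinase and scaffold genes include them.

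RNA came from CD4+CD8+ double-positive thymocytes that had been isolated with microbeads from the thymi of female C3H/HeN mice, 4 weeks old. The control group received medium with 0.1% PBS and the treated group 1e-07 M dexamethasone in PBS, each for 3 h at 5.0e+06 cells per ml in 3 ml. Each group had 2 arrays, which the series design calls technical replicate extracts, so p-values measure the spread between extracts and not between mice. Whether thymi were pooled is not stated in the labels.

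MAP kinases act in tiers. A MAP4 kinase or a small GTPase such as Ras activates a MAP3 kinase, which phosphorylates a MAP2 kinase, which phosphorylates the MAP kinase itself, of the ERK, JNK, p38 or ERK5 type. The dual-specificity phosphatases of the MAP kinase phosphatase type remove both activating phosphates again, and several of their genes are themselves induced by the kinases they restrain. In double-positive thymocytes this cascade relays the T cell receptor signal that decides between positive selection and death, and glucocorticoids are a classical trigger of death in these cells.

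The arrays were alike in signal, with medians of 20.9 to 22.7 and 55.6% to 57.1% of probe sets above a background of 14, the highest value of 19 probe sets for bacterial and yeast transcripts. Values are MAS5 signals in arbitrary units. The response gene Fkbp5, a co-chaperone of the glucocorticoid receptor, had signals of 660 and 590 in medium and of 2382 and 2152 with dexamethasone. Of 10 double-positive thymocyte markers measured, all 10 were above background, with summed signals of 14103 and 13813 in medium and 14241 and 13439 with dexamethasone. Among these 10, Ptcra (87.7 and 86.1 against 49.5 and 47, a log2 difference of -0.84) and Cd8b1 (2138 and 1993 against 1648 and 1626, -0.33) fell. The 7 myeloid markers summed to 71.4 to 103 and the 3 natural killer markers to 70.7 to 98.2 over the 4 arrays, and the 3 erythroid markers to 98.0 to 116. Itgam, Adgre1, Lyz2, Ncr1, Alas2 and the epithelial genes Krt5, Krt8, Krt18, Epcam and Foxn1 lay at or under background on every array. Cd14, Cd68, Gzma and Hba-a1, of the same lists, were above it on every array. Cd14 was at 40.8 and 45.1 in medium and at 43.9 and 24.6 with dexamethasone. Cd68 was at 17.6 and 19.3 against 21.5 and 20.5. Gzma was at 91.9 and 89 against 82.2 and 67.8, and Hba-a1 at 94.3 and 99.9 against 112 and 104. Csf1r straddled the background, with values from 7.2 to 16. The 6 epithelial markers summed to 212 and 222 in medium and to 111 and 110 with dexamethasone, most of it Cldn4. Cldn4 fell, from 203 and 210 to 87.4 and 97.8 (log2 difference -1.15). The 6 B cell markers summed to 1416 and 1394 in medium and to 1914 and 1888 with dexamethasone, most of it Ighm. Ighm rose, from 1282 and 1257 to 1751 and 1749 (log2 difference 0.46). Actin control probe sets, a sign of RNA quality, gave 3′ to 5′ ratios of 1.15 and 1.06 for the control extracts, against 1.40 and 1.24 for the treated ones. The same ratio for Gapdh was 0.838 and 0.845 against 0.904 and 0.823, with overlapping groups. The part of these shifts in the differences described here was not tested.

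Of the 30 tested members, 1 rose and 1 fell within 3 h. Dusp2, a nuclear phosphatase of MAP kinases, rose 1.90-fold, and Mapk6, which encodes the atypical MAP kinase ERK3, was 1.40-fold lower. No other member passed. Kinase and scaffold genes lay mostly a little lower with dexamethasone, with a median log2 difference of -0.20 over 23 tested (-0.18 over the 21 kinases without the scaffolds), while the 7 tested phosphatases were spread to both sides of 0 with a median of -0.07. Differences were tested with limma on log2(signal + 1), a scale that understates changes of dim genes, for 5582 genes at once, with a threshold of 0.05 after Benjamini-Hochberg adjustment. Of all genes tested, 1.88% rose and 2.02% fell. In a sample of many cells, fewer cells of a type and less RNA per cell cannot be told apart.

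These directions hold relative to the deposited scaling, which sets every array to a common trimmed mean. The 9 hybridization control probe sets, which detect transcripts added after RNA labelling, were 1.37-fold higher on the dexamethasone arrays. Scaling to them shifted the median over all genes tested to -0.45 on the log2 scale, from 0.00, and all 23 kinase and scaffold genes and 6 of the 7 phosphatases were then lower. Among calls over all genes, 105 rose and 113 fell with the deposited scaling. The split was 92 to 162 with array medians centred and 43 to 2498 with scaling to the hybridization controls.

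**Figure D1:**
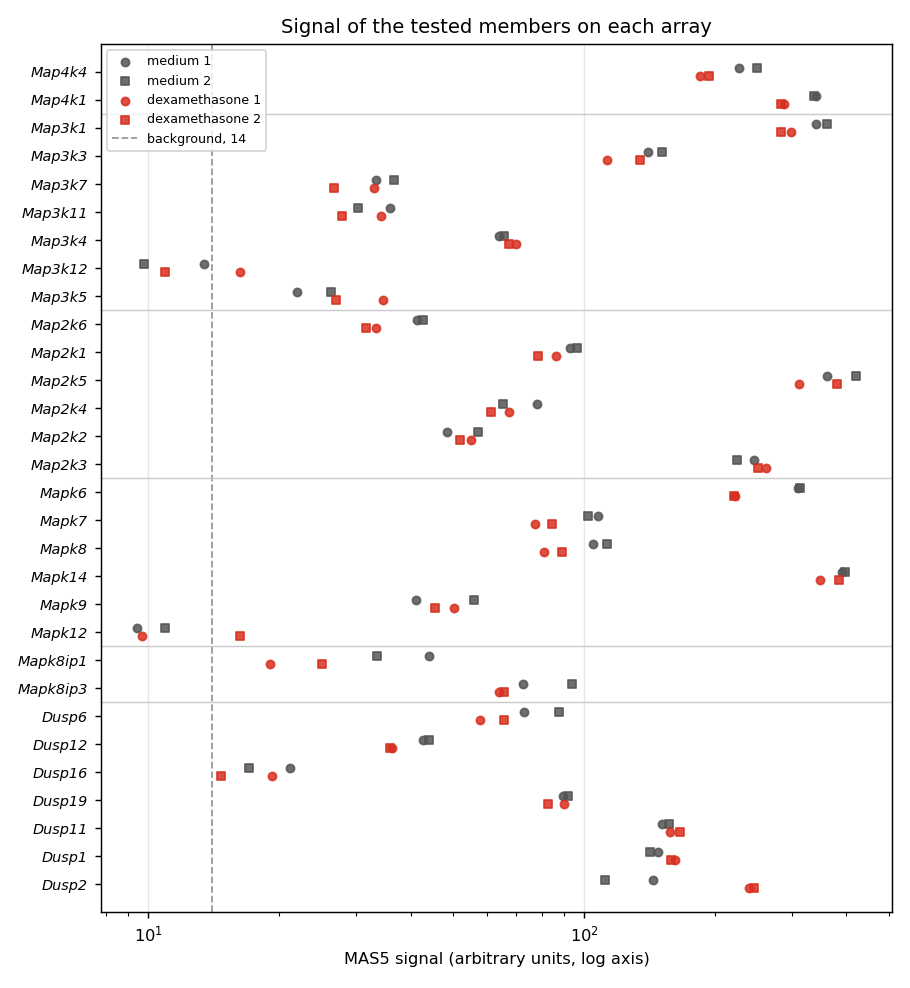
MAS5 signal (log axis) of the 30 tested members on each array, with 2 medium arrays in grey and 2 dexamethasone arrays in red, grouped from top to bottom as MAP4, MAP3, MAP2 and MAP kinases, JNK scaffolds and phosphatases. The dashed line is the background of 14. Dusp2 is the member whose dexamethasone points lie farthest to the right of its medium points, and the Mapk6 points form 2 tight pairs, at 310 and 313 in medium and at 222 and 221 with dexamethasone.

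Dusp2 encodes PAC-1, a phosphatase of activated lymphocytes that acts on MAP kinases in the nucleus. Its signal was 144 and 112 without the steroid, against 239 and 246 with it. Both treated values lay above both controls, and the medium arrays differed from each other more than the treated ones did. The means were 128 ± 23.0 and 242 ± 5.16 (SD, n = 2), a log2 difference of 0.93 ± 0.13 (SE, limma adjusted p = 0.0186). The difference was 0.47 with scaling to the hybridization controls, where the limma adjusted p was 0.0492. The call was lost without the second medium array, at a log2 difference of 0.74, without the first dexamethasone array (0.95) and without the second (0.90). It was also lost in a fit without the variance trend, which called 19 of all 5582 genes.

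Mapk6 encodes ERK3, an unstable atypical kinase that lacks the usual activation motif of the ERKs and signals through the kinase MK5. Its signal measured 310 and 313 in medium, against 222 and 221 with dexamethasone. The groups were well apart, and the 2 arrays of each group were nearly equal. The mean fell from 311 ± 2.26 to 222 ± 0.141 (SD, n = 2), a log2 difference of -0.49 ± 0.07 (SE, limma adjusted p = 0.01995). Leaving out any of the 4 arrays ended the call while the log2 difference stayed between -0.50 and -0.48, and so did the fit without the variance trend. Mapkapk5, which encodes MK5, was at 94.1 and 80.2 in medium and at 90.5 and 119 with dexamethasone, and the groups overlapped.

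The sequences around the start sites of these changed genes are shown with that of Dusp1, a phosphatase gene that glucocorticoids induce in many cell types and that did not pass here. Each window runs from 250 bases before to 50 bases after a RefSeq start of GRCm38.p6 and is written in the direction of transcription. Mapk6 has 2 such starts. Capitals mark CACGTG (an E-box), TGACGTCA (a cAMP response element, which contains TGACG) and TGACG elsewhere, on either strand. The regions are chr2:127335909-127336208 (+ strand) for Dusp2, chr9:75409967-75410266 and chr9:75409310-75409609 (- strand) for Mapk6, and chr17:26508423-26508722 (- strand) for Dusp1.
Dusp2: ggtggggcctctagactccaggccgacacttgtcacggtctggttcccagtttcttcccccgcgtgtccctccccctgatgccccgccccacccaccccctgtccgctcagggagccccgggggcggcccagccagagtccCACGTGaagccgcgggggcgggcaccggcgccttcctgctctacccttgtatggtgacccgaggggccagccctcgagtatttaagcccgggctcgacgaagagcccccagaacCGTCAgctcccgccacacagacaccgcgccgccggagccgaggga
Mapk6, upstream start: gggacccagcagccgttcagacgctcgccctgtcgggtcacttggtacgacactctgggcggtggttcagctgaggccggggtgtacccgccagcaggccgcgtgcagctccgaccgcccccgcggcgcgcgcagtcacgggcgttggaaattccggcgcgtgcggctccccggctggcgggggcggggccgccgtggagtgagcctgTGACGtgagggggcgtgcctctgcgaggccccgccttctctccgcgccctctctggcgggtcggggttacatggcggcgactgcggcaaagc
Mapk6, downstream start: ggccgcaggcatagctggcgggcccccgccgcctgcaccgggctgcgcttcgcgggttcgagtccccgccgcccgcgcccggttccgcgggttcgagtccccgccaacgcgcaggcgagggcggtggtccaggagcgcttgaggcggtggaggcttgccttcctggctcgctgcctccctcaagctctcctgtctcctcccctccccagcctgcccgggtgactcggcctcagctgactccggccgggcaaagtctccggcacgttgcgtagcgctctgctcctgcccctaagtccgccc
Dusp1: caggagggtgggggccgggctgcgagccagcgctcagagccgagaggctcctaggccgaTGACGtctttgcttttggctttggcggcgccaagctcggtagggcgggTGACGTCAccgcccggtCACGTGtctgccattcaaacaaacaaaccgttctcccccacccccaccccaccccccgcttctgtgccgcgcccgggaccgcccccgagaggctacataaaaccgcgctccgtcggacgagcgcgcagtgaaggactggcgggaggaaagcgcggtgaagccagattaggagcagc

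The Dusp2 window holds 1 E-box, which begins at position -109 from the start, and 1 TGACG, which reads CGTCA on the printed strand. The Dusp1 window holds 1 E-box at position -126, 1 full cAMP response element and 3 matches to TGACG, of which 2 lie within that element, 1 on each strand. The upstream Mapk6 window holds 1 TGACG and the downstream one holds none of the marked letters. All 4 windows hold 3 copies of GGGCGG (a GC box, not marked), and their GC content is 67.0% to 73.7%. A palindromic glucocorticoid response element, AGAACA and TGTTCT with 3 bases between, was in none of the 41 windows found for 31 of the 37 member genes, and in 3 of all 32851 windows (0.00913%). The hexamer AGAACA by itself, on either strand, was in 7 of the 41 windows, against 19.0% of all, and in none of the 4 printed. The E-box was in 5 of the 41 windows, of Dusp1, Dusp2, Map3k12, Map4k1 and Mapk12, against 7.15% of all. TGACGTCA was in 3, of Dusp1, Dusp8 and Mapk10, against 1.79%, TGACG in 16, against 20.8%, and GGGCGG in 25, against 35.7%. Such matches describe letters and no binding, and elements farther away are outside these windows.

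The other phosphatases did not pass. Dusp1 encodes MKP-1, a nuclear phosphatase that acts on p38 and JNK as well as ERK. Its signal measured 148 and 142 in medium, against 162 and 158 with dexamethasone, so the groups did not overlap, but the log2 difference was only 0.15 ± 0.08 (SE, limma adjusted p = 0.402). It was -0.31 with scaling to the hybridization controls. Dusp6 encodes MKP-3, a cytoplasmic phosphatase specific for ERK whose own gene responds to ERK activity. Its signal measured 72.7 and 87.7 in medium, against 57.8 and 65.7 with dexamethasone, lower in both treated extracts, with a log2 difference of -0.37 ± 0.14 (SE, limma adjusted p = 0.225). Its other probe set did not exceed 5.4, and the mean of the 2 probe sets gave 0.13.

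Dusp12, an atypical member with a zinc-binding domain, was at 42.7 and 44.2 in medium and at 36.2 and 35.8 with dexamethasone (log2 difference -0.26 ± 0.15, SE). Dusp11, which removes phosphates from RNA ends, was at 151 and 157 in medium and at 157 and 166 with dexamethasone. Its log2 difference of 0.07 was of the order of the spread between arrays. Dusp19, a small phosphatase linked to the JNK pathway, was at 89.6 and 91.9 against 90.1 and 82.9, and Dusp16, or MKP-7, which acts on JNK and p38, was at 21.2 and 17 against 19.2 and 14.7. Both overlapped between the groups. Dusp8 and Dusp9 were at or under background on every array with each of their 2 probe sets and were not tested.

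Among the phosphatases 1 of 7 rose and 0 fell, and 2 had an unadjusted p under 0.05. Both treated values lay above both controls for 3 of them, which is the case for 24.7% of all genes tested, and below for 2, against 25.7%. Among the 23 kinase and scaffold genes 0 rose and 1 fell, and 7 had an unadjusted p under 0.05, against 1111 of all 5582 genes. Of these 23, 17 were lower, against 49.9% of all genes. Both treated values lay below both controls for 13 and above for 3. Without the scaffolds, 15 of 21 kinases were lower, and both treated values lay below both controls for 11 and above for 3. The median log2 difference of these 23 genes was -0.18 to -0.25 in each of the 4 pairings of a dexamethasone with a medium array. It was 0.05 between the medium arrays and -0.05 between the dexamethasone arrays. It was -0.10 when the probe sets of a gene were averaged, which brings in dim probe sets, and -0.15 over probe sets. The pairings share arrays and the genes were read in the same extracts, so these numbers describe the list and are no test of it.

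**Figure D2:**
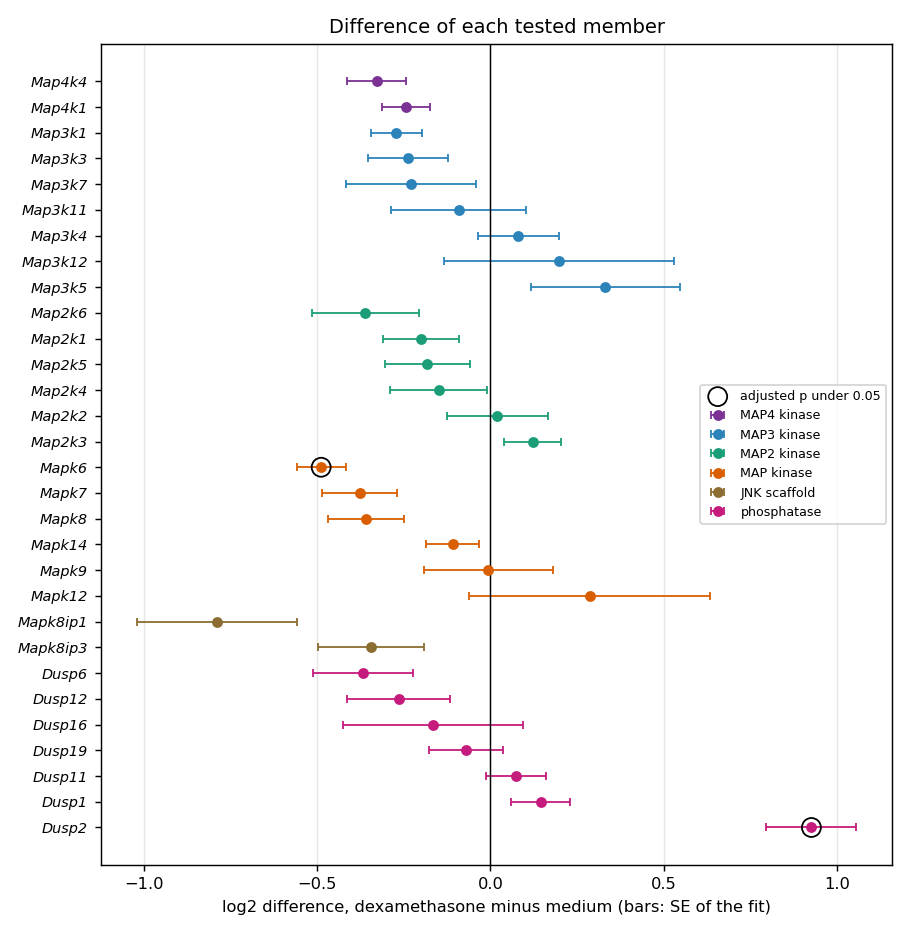
Log2 difference, dexamethasone minus medium, of each of the 30 tested members, with the SE of the limma fit as bars and colours for the tier. The 2 ringed genes passed the threshold, Mapk6 at -0.49 and Dusp2 at 0.93. Both MAP4 kinases, both JNK scaffolds and 5 of 6 MAP kinases lie to the left of 0.

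At the top of the cascade, both measured MAP4 kinases were lower with dexamethasone without passing. Map4k1 encodes HPK1, a blood-cell kinase that restrains T cell receptor signalling and activates the JNK pathway. Its signal measured 340 and 336 in medium, against 288 and 283 with dexamethasone, a narrow spread within each group (log2 difference -0.24 ± 0.07, SE, limma adjusted p = 0.121). Map4k4, a kinase of the same family that responds to tumour necrosis factor, was at 227 and 249 in medium and at 185 and 194 with dexamethasone. Its log2 difference was -0.33 ± 0.09 (SE, limma adjusted p = 0.0974), and a further probe set of the gene gave -0.31. For both genes the groups did not overlap.

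The MAP3 kinases went to both sides, with 4 of 7 tested lower and 3 higher and a median log2 difference of -0.09. Map3k1 encodes MEKK1, which feeds the JNK pathway, and was at 341 and 361 in medium and at 298 and 283 with dexamethasone (log2 difference -0.27 ± 0.07, SE, limma adjusted p = 0.112). A dim probe set of Map3k1 overlapped between the groups, at -0.03. Map3k3, or MEKK3, upstream of ERK5, was at 140 and 151 against 113 and 135. Its 3 probe sets gave log2 differences of -0.24, -0.18 and 0.05, so they did not share a direction. Map3k7, the kinase TAK1 of cytokine and NF-kappaB signalling, was at 33.4 and 36.6 against 33.0 and 26.7.

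Map3k5 encodes ASK1, a kinase of oxidative stress linked to cell death, and had the largest positive difference among the tested kinases. Its signal measured 22.0 and 26.2 in medium, against 34.5 and 26.9 with dexamethasone. The second treated value barely cleared the controls, and the log2 difference was 0.33 ± 0.22 (SE, limma adjusted p = 0.454). Map3k4, or MEKK4, was at 63.9 and 65.5 against 69.8 and 67.2, and Map3k11, or MLK3, was at 35.9 and 30.3 against 34.2 and 27.9. Map3k12 straddled the background, with values from 9.8 to 16.2. Map3k2, Map3k6 and Map3k8 were at or under background on every array and were not tested.

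Of the 6 MAP2 kinases, all tested, 4 were lower and 2 higher, and none passed. Map2k1 and Map2k2 encode MEK1 and MEK2, the MAP2 kinases of the ERK branch. Map2k1 was at 92.8 and 96.4 in medium and at 86.1 and 78.4 with dexamethasone (log2 difference -0.20 ± 0.11, SE), while Map2k2 overlapped between the groups at 48.4 and 57.2 against 55.0 and 51.8.

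Map2k3 and Map2k6, the MAP2 kinases of p38, lay on opposite sides, each with a pair of concordant probe sets. Map2k3 was at 246 and 225 in medium and at 262 and 250 with dexamethasone, and its 2 bright probe sets gave log2 differences of 0.12 and 0.17. Map2k6 was at 41.4 and 42.6 in medium and at 33.4 and 31.6 with dexamethasone, and its 2 probe sets gave -0.36 and -0.39, with a limma adjusted p of 0.264 for the former. With scaling to the hybridization controls both genes were lower. Map2k4, which activates JNK, was at 78.0 and 65.3 against 67.4 and 61.3, and Map2k5, which activates ERK5, at 361 and 422 against 311 and 381, both with overlapping groups.

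Among the MAP kinases themselves, 5 of 6 tested were lower and Mapk6 passed. Mapk7 encodes ERK5, a large kinase with its own transactivation domain. Its signal measured 108 and 102 in medium, against 77.0 and 84.6 with dexamethasone, with no overlap (log2 difference -0.38 ± 0.11, SE, limma adjusted p = 0.125). Mapk8 encodes JNK1, a stress-activated kinase of the transcription factor Jun, and was at 105 and 113 in medium and at 80.9 and 88.9 with dexamethasone. Its log2 difference was -0.36 ± 0.11 (SE, limma adjusted p = 0.140). Its other probe set lay under background, and the mean of both gave -0.01. Mapk9, which encodes JNK2, was at 41.1 and 56.0 against 50.2 and 45.5, and the medium values enclosed the treated ones.

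Mapk14 encodes p38 alpha, the main p38 kinase of most cells. It was at 392 and 397 in medium and at 348 and 384 with dexamethasone, a log2 difference of -0.11 ± 0.08 (SE, limma adjusted p = 0.491). It was -0.04 without the first dexamethasone array and -0.18 without the second. Mapk12, or p38 gamma, was at 9.4 and 10.9 in medium and at 9.7 and 16.2 with dexamethasone, so only 1 array exceeded the background of 14. Mapk10 and Mapk13, which encode JNK3 and p38 delta, stayed at or under background on every array. The genes of the JNK branch at or below the MAP2 kinase level (Map2k4, Mapk8, Mapk9, Mapk8ip1 and Mapk8ip3) were lower in 5 of 5 tested cases, by very unequal amounts, from -0.01 for Mapk9 to -0.79 for Mapk8ip1, where 49.9% of all genes were lower. Mapk9 turned positive after quantile normalization (0.01), without the second medium array (0.21) and without the second dexamethasone array (0.06). Those of the p38 branch were lower in 2 of 4. Mapk12 turned negative with scaling to the hybridization controls (-0.17) and without the second dexamethasone array (-0.06), and Map2k3 also turned negative with that scaling. Neither count was tested.

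The JNK scaffolds held the largest negative difference among the tested members, on a dim probe set. Mapk8ip1 encodes JIP-1, which binds JNK together with its upstream kinases, and was at 44.2 and 33.5 in medium and at 19.0 and 25.1 with dexamethasone. The groups were apart, but the arrays of a group differed widely, and the log2 difference of -0.79 ± 0.23 (SE) did not pass (limma adjusted p = 0.129). Its other probe set lay under background, and the mean of both gave -0.34, smaller in size than that of Mapk6. Mapk8ip3, or JIP-3, which also links cargo to kinesin motors, was at 72.3 and 93.9 in medium and at 63.9 and 65.5 with dexamethasone (log2 difference -0.34 ± 0.15, SE, limma adjusted p = 0.277).

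**Figure D3:**
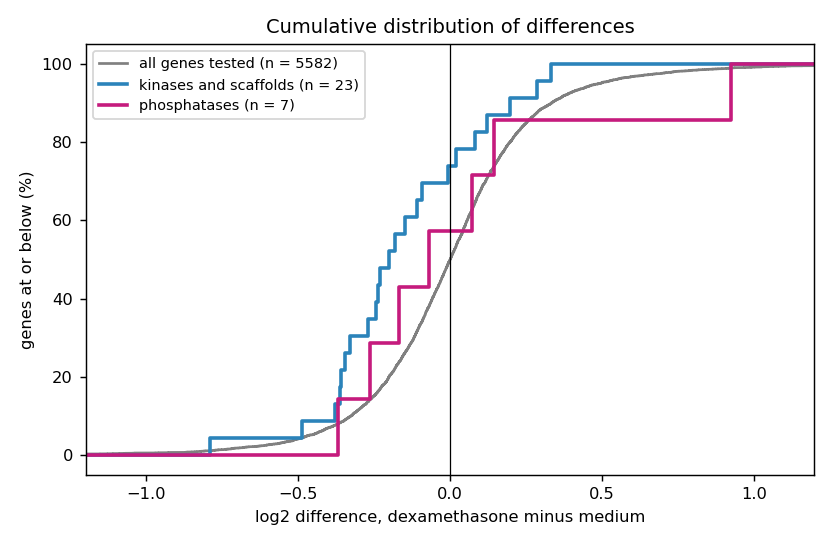
Cumulative share of genes (%) at or below each log2 difference, for all 5582 genes tested, the 23 kinase and scaffold genes and the 7 phosphatases. The kinase line runs to the left of the line for all genes, with medians of -0.20 and 0.00, and the phosphatase line ends at Dusp2 (0.93). Differences beyond 1.2 in either direction are outside the axis.

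Several members had more than 1 probe set above background, which gave a check on single probe sets. These were 5 genes with 11 probe sets. For Map2k3, Map2k6 and Map4k4 the probe sets of a gene shared their direction and their order of the groups. For Map3k1 they shared the direction (-0.27 and -0.03), but the dimmer one overlapped between the groups. For Map3k3 they shared neither (-0.24, -0.18 and 0.05), and the last overlapped between the groups. Neither Dusp2 nor Mapk6 had a further probe set that named it as its only gene, so their calls rest on 1 probe set each.

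**Figure D4:**
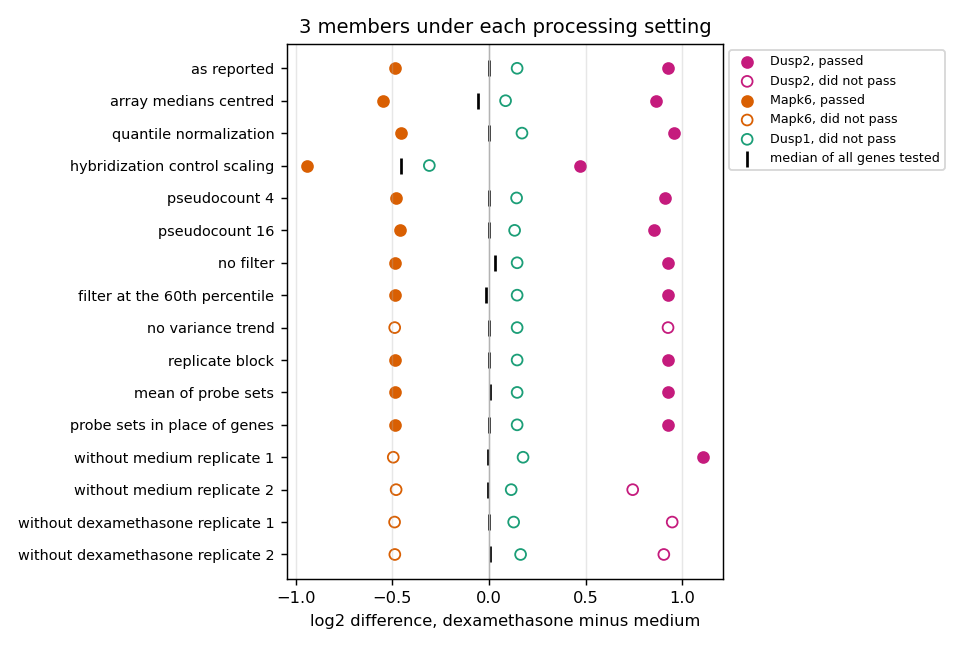
Log2 difference of Dusp2, Mapk6 and Dusp1 as reported and under each of 15 alternatives, with filled points where the limma adjusted p was under 0.05 and a black bar at the median of all genes tested. Dusp2 runs from 0.47 to 1.11 and Mapk6 from -0.94 to -0.46, each with its sign kept, while Dusp1 goes from 0.18 to -0.31 with scaling to the hybridization controls.

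Other genes of the pathway were read off the same fit. Of 85 listed genes for Ras and its regulators, Raf kinases, scaffolds and modulators, downstream kinases, other phosphatases, feedback inhibitors and nuclear targets, 64 had a probe set and 53 were tested. Of these, 0 rose and 1 fell, 10 had an unadjusted p under 0.05, and the median log2 difference was -0.02. Over all genes tested, 1.88% rose and 2.02% fell, and 1111 of 5582 had such a p. The gene that fell was Ets2, which encodes a transcription factor that ERK phosphorylates. Its signal measured 562 and 585 in medium, against 338 and 323 with dexamethasone, a log2 difference of -0.79 ± 0.07 (SE, limma adjusted p = 0.00329). The call was lost without the second medium array and in the fit without the variance trend.

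Among 11 genes of Ras, its exchange factors and adaptors, the largest difference was that of Rasgrp1, which activates Ras downstream of the T cell receptor. Its signal measured 67.6 and 66.8 in medium, against 41.4 and 50.6 with dexamethasone, well apart (log2 difference -0.54 ± 0.15, SE, limma adjusted p = 0.110). Rasa3, which switches Ras off, was at 187 and 218 against 145 and 137 and missed the threshold narrowly (log2 difference -0.52 ± 0.10, SE, limma adjusted p = 0.0501). It was named after its values were seen, and it passed in 6 of 15 alternatives. The only Raf gene tested, Araf, was at 138 and 102 against 156 and 126, with overlapping groups.

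Of 11 scaffolds and modulators, Gadd45a, a stress protein that can activate the MAP3 kinase encoded by Map3k4, differed most. It was at 84.1 and 88.0 in medium and at 129 and 116 with dexamethasone (log2 difference 0.50 ± 0.11, SE, limma adjusted p = 0.0601), and it passed under 1 alternative, the stricter filter. Mapkapk5 differed most of 4 downstream kinases, with a log2 difference of 0.25 ± 0.16 (SE). Ppp5c, a phosphatase that acts on ASK1 and binds the glucocorticoid receptor complex, was at 55.3 and 56.8 against 44.4 and 44.0, the largest difference of 6 other phosphatases (-0.34 ± 0.13, SE, limma adjusted p = 0.227). Errfi1, an inhibitor of the epidermal growth factor receptor, differed most of 3 feedback inhibitors, at 68.7 and 54.6 against 54.4 and 54.7.

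Other nuclear targets did not pass. Fos, an immediate-early gene, was at 13.8 and 15.0 in medium and at 17.2 and 14.1 with dexamethasone, and Egr1, which ERK induces through the Elk factors, was at 35.7 and 30.6 against 29.6 and 36.7. Junb was at 59.7 and 83 against 54.9 and 89.6, with values that differed more within the groups than between them. Mef2d, a target of ERK5 and p38, was at 1573 and 1576 against 1311 and 1162 (log2 difference -0.35 ± 0.08, SE, limma adjusted p = 0.0617), and it fell in 5 of 15 alternatives. Fosl2, a Fos relative, was close to background, at 18.6 and 16.4 against 12.5 and 7.6, and its log2 difference of -0.78 ± 0.32 (SE) did not pass (limma adjusted p = 0.252). Creb1, a target of kinases downstream of ERK and p38, was at 24.8 and 22.9 against 31.5 and 38.1, the largest positive difference of the 17 tested targets (0.52 ± 0.19, SE, limma adjusted p = 0.201). These 6 were chosen after their values were seen.

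**Figure D5:**
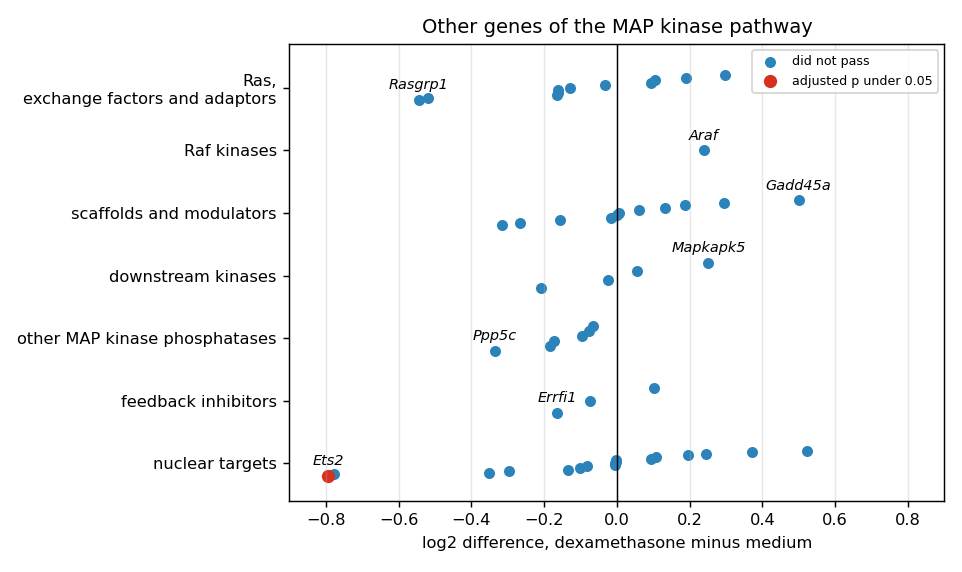
Log2 difference, dexamethasone minus medium, of 53 other genes of the MAP kinase pathway, 1 point a gene, by role, with the gene of the largest difference in each role named. Ets2 at -0.79 is the gene that passed the threshold, while dim Fosl2 beside it, at -0.78, did not, and the points of every role but the Raf kinases and the other phosphatases lie on both sides of 0.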

How the data were processed

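RNA of 4 extracts was measured on Affymetrix-type arrays, 2 for each group. The deposited numbers are linear intensities, which the authors obtained with MAS5 (named in the submitters' processing notes, with version and settings not given in the sources used here). A trimmed mean of 100.1 on every array, with 2% removed from each end, shows a common scaling. Columns of other samples numbered 0. Of the probe sets, 66 were controls, 10833 named 1 gene in the platform annotation, 396 several and 1193 none.

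Signals were used as log2(signal + 1). Each gene was represented by its brightest probe set, and genes at or under the 40th percentile of mean log2 signal over all probe sets were left out, which removed the 7 member genes at background on every array. Groups were compared with lmFit and eBayes in limma 3.58.1 (R 4.3.3), with a variance trend, two-sided, adjusted over 5582 genes. This procedure was checked on simulated data with known changes. The simulated noise was independent between arrays and took the variances of the fit, so shifts that follow a group were not covered.

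The members and lists were chosen with earlier results of these data known. Values were given for members that passed, the 3 largest differences of each list, the ERK, JNK and p38 kinases and 5 phosphatases, of which Dusp4 and Dusp5 were not analysed here. The remaining members are given in less detail, and pathway genes where they passed or differed most in their role. Alternatives were 3 scalings, 2 pseudocounts (4 and 16), 2 filters, no variance trend, a replicate block, 2 treatments of probe sets and leaving out each array. Promoter sequences are from RefSeq. Gene positions on the array's own build are not given in the sources used here.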

Additional observations from a re-analysis of the deposited data

How the results depend on the processing

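With 2 arrays a group, the count of calls moved widely. The count of changed genes was 218. It became 2541 with scaling to the hybridization controls, 116 without a filter, 19 without the variance trend, 353 with a replicate block, and 32 to 78 when 1 array was left out. Of the kinase and scaffold genes, 15 fell with scaling to the hybridization controls, 0 without the trend and 0 whichever array was left out. Of the phosphatases, 3 fell with the hybridization controls. The count that rose was 0 without the trend and 0 to 1 without an array. Among pathway genes 1 rose with the stricter filter. The count that fell was 3 with array medians centred, with the stricter filter and with the replicate block, 2 after quantile normalization and with pseudocounts of 4 and 16, 26 with the hybridization controls, 0 without the trend and 0 to 1 without an array. The median log2 difference of the kinase and scaffold genes was -0.26 with array medians centred, -0.66 with the hybridization controls, -0.10 with averaged probe sets and -0.15 over probe sets. That of the phosphatases was -0.52 with the hybridization controls, 0.0734 without a filter and with the stricter one, 0.10 with averaged probe sets and -0.129 to 0.0151 without an array, the latter without the second dexamethasone array. The hybridization controls shift every gene alike. Other causes were not tested. The replicate numbers are not known to pair the extracts: deviations of arrays with the same number correlated at 0.07. The block changed no call of a member.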
